A study of Mus musculus with 6 samples.

Results

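The CCT chaperonin, also called TRiC, is the ATP-driven folding chamber of the eukaryotic cytosol. Its 8 subunits are encoded in the mouse by Tcp1, Cct2, Cct3, Cct4, Cct5, Cct6a, Cct7 and Cct8, and these genes were taken by symbol from 24391 genes in the annotation. All 8 were among the 12664 genes with enough counts to be tested. RNA was sequenced from mRPMaxKO, a cell line from a mouse lung tumour of genotype RPMax-/- on a mixed 129/SvJ; C57BL/6 background. A polyclonal population had received a doxycycline-inducible lentiviral vector, was selected with puromycin and was used below passage 20. The 3 MAX restored libraries come from cells in which MAX was put back, and the 3 control libraries from cells labelled control. Doxycycline was given for 4 days, according to a treatment field that reads the same in MAX restored and control samples. The labels do not say what insert the vector of the control cells carried or whether the libraries of a group were separate cultures, so the p-values reflect only how far these libraries differ, and that spread could be technical. Both groups carry the RPMax-/- genotype, as labelled, and come from a single line.

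Each CCT ring holds every subunit in a fixed position. The rings are stacked back to back in pairs, and a folding protein is enclosed within a single ring. Going round the ring, the order known from cross-linking and structural work is Cct3, Cct6a, Cct8, Cct7, Cct5, Cct2, Cct4 and Tcp1, which closes on Cct3. Actin and tubulin are the classic clients, handed over largely by prefoldin, and several proteins with WD40 repeats also need the chamber. Since an assembled ring takes equal numbers of each subunit, the balance among the subunit transcripts is of interest beside their level. MAX is the partner with which MYC proteins bind DNA, at the E-box sequence CACGTG among others. The comparison asked how the subunit transcripts stood after MAX was restored in mRPMaxKO cells.

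The promoter sequences of 3 subunit genes are given first, since they belong to the subunit whose transcript fell most (Cct3), the one that gave the ring its older name (Tcp1) and the one that fell least (Cct7). They are the 250 bases before the annotated start, 5′ to 3′ on the plus strand, from RefSeq on GRCm38.p6. Capitals mark the CCAAT box, searched as CCAAT and ATTGG, a motif chosen after the sequences were seen. They span chr3:88296885-88297134 for Cct3, chr17:12916079-12916328 for Tcp1 and chr6:85451255-85451504 for Cct7.
Cct3: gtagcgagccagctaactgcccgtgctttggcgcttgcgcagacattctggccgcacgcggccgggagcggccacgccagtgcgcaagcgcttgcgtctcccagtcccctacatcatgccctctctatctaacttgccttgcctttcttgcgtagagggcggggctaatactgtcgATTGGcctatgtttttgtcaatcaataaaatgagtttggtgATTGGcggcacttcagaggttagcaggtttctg
Tcp1: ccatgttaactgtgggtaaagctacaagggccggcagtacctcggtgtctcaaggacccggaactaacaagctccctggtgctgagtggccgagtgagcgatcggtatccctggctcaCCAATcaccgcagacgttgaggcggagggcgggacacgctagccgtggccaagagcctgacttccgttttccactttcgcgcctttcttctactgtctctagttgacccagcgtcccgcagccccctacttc
Cct7: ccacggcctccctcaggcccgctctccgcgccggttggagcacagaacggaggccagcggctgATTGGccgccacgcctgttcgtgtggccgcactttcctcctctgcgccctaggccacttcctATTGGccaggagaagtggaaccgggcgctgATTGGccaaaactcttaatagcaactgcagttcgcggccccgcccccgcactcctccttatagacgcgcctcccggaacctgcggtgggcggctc
RefSeq windows of 250 bases before to 50 after a start were matched for 7 of the subunit genes, 9 windows in all. No window held CACGTG, which reads the same on both strands and was present in 7.15% of 32851 windows of the same length. At that share, none in 9 windows is not unusual. Other sequences bound by MAX were not searched for. A CCAAT box was present in 4 of the 9, those of Cct3, Cct6a, Cct7 and Tcp1, against 37.4% of all windows. The paired heat shock element units GAANNTTC and TTCNNGAA, each its own reverse complement, were found in Cct2 for the first and in Cct5 and Cct6a for the second. They occurred in 7.86% and 8.52% of all windows. Letters in these windows do not show binding.

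Depth was even, with 10253303 to 11925909 counts in the MAX restored libraries and 10046899 to 10425210 in the controls. Control 1 stood apart within its group. Chi-square values over genes, divided by their degrees of freedom, were 8.91 and 10.2 for its pairs with controls 2 and 3, whereas the other replicate pairs lay between 1.24 and 1.5. The ribosomal RNA precursor Rn45s took 0.996% of the counts of control 1, against at most 0.187% elsewhere. Rn45s was among the genes in the chi-square values, so part of the high values of control 1 comes from this 1 gene. How much was not computed. Max had 15979, 14933 and 13369 counts in MAX restored libraries 1, 2 and 3, against 639, 691 and 620 in controls 1, 2 and 3. It was thus higher in every library labelled MAX restored, by 20.9-fold in the fit. No cells with intact Max are among the libraries, so this level cannot be set against a normal one. The deletion itself is not checked by these values, since counts summed over the gene separate neither vector from endogenous transcripts nor the deleted part from the rest. Of 7 neuroendocrine markers 6 were expressed, Chga and Calca among them, with their summed level at 6389 to 6583 CPM (counts scaled to library size) in MAX restored cells and 5600 to 5856 in controls. Neurod1 was at 0 in every library. Lists of 6 genes each for fibroblasts, immune cells and endothelium summed to at most 3.32 CPM in any library. Cd3e, Cdh5 and Cldn5 were at 0 throughout, while the fibroblast gene Pdgfrb averaged 1.86 CPM in MAX restored cells and 0.525 CPM in controls, a rise past the threshold.

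Transcripts of all 8 CCT subunits were lower with MAX restored. The fall ranged from 1.06-fold in Cct7 to 1.33-fold in Cct3, with a median log2 fold change of -0.24 against 0.00 over all tested genes. Counts of the subunits together made up 0.201% to 0.205% of each MAX restored library and 0.233% to 0.243% of each control library. Their summed level was 2035 ± 21.9 CPM in MAX restored cells and 2373 ± 67.0 CPM in controls (SD, n = 3 each), 14.2% lower with MAX. In edgeR's quasi-likelihood test, adjusted over all genes, 8 of 8 were lower at an adjusted p under 0.05 and 0 higher, where 32.3% of all tested genes were lower and 31.2% higher. Among the 859 genes whose mean CPM lay within the range of the subunits, 36.3% were lower and the median was also 0.00. The CPM of the groups did not overlap for any of the 8, all lower with MAX, while 33.8% of tested genes were separated in that direction and 33.2% in the other. In bulk RNA, fewer cells of a type and less RNA per cell cannot be told apart, and with no added standard every value is relative to the rest of the transcriptome.

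**Figure D1:**
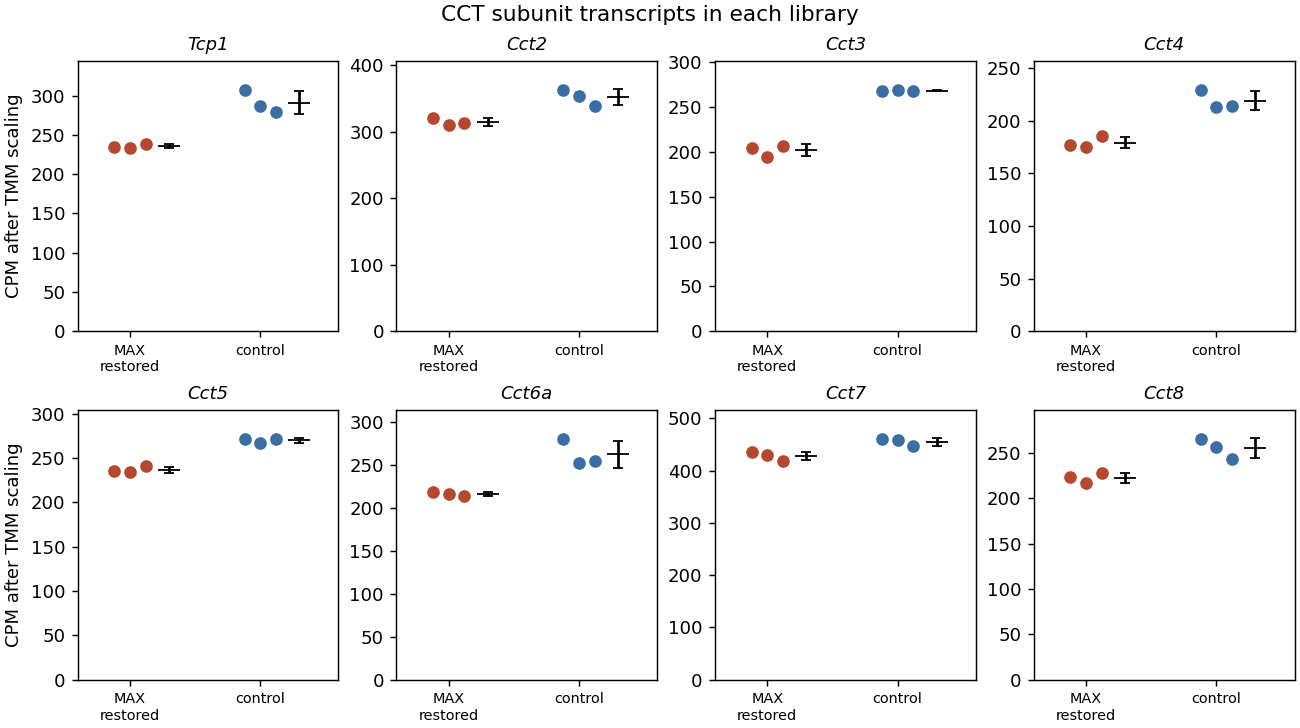
Level of each CCT subunit transcript in CPM after TMM scaling (vertical axes from 0), with 1 point per library and a bar with SD for each group of 3. The 3 MAX restored libraries lie below the 3 control libraries in every panel, by most in Cct3 and by least in Cct7.

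Cct3, the gamma subunit, fell most. It lies on chromosome 3 of mm9 from 88101057 to 88125688. Its level was 204, 194 and 207 CPM in MAX restored libraries 1, 2 and 3, against 268, 269 and 268 CPM in controls 1, 2 and 3. The controls were nearly identical and every MAX restored library stood well below them. The log2 fold change was -0.41 (SE 0.04, edgeR adjusted p = 3.47e-08), and 14.5% of all tested genes had a lower one.

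Tcp1, the alpha subunit and a founding member of the family, named for the mouse t-complex where it was found, came next. It lies on chromosome 17 from 13109195 to 13117933. Its level was 235, 233 and 238 CPM with MAX restored, against 307, 287 and 279 CPM in controls 1, 2 and 3. The log2 fold change was -0.31 (SE 0.04, edgeR adjusted p = 2.69e-06). Control 1 was the highest library, and without it the value was -0.27. Its exons share 571 bases, 22.8% of their length, with Acat3 on the other strand. Reads there could be assigned to neither gene, although Acat3 itself had 10 counts over all libraries.

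The delta subunit gene Cct4, in which a mutation causes sensory neuropathy in the rat, lies on chromosome 11 from 22890593 to 22903336. It stood at 177, 175 and 185 CPM in MAX restored libraries 1, 2 and 3, against 229, 213 and 214 CPM in controls 1, 2 and 3. Cct6a, the zeta subunit, has a close relative in testis, Cct6b, and lies on chromosome 5 from 130293232 to 130322319. Its level was 219, 217 and 214 CPM with MAX, against 281, 252 and 255 CPM in controls 1, 2 and 3. Both were lower in every MAX restored library than in any control, with control 1 the highest. The log2 fold change was -0.29 for Cct4 (SE 0.0451, edgeR adjusted p = 1.49e-05) and -0.28 for Cct6a (SE 0.0450, edgeR adjusted p = 2.06e-05). Without control 1 the value for Cct6a was -0.23 and that for Cct4 -0.26. Cct6b averaged 1.67 ± 0.261 CPM with MAX and 1.92 ± 0.364 CPM in controls (SD, n = 3 each), and was not past the threshold (adjusted p = 0.537, 95% interval of the log2 fold change -0.74 to 0.35).

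The remaining 4 subunits moved less. Cct8, the theta subunit on chromosome 16 from 87483570 to 87496114, was at 224, 217 and 228 CPM in MAX restored libraries and 266, 257 and 244 CPM in controls. Cct5, the epsilon subunit on chromosome 15 from 31520639 to 31531559, was at 235, 234 and 241 CPM with MAX and 272, 267 and 272 CPM in controls. Human CCT5 is another subunit gene linked to sensory neuropathy. Cct2, the beta subunit on chromosome 10 from 116488054 to 116500870, was at 321, 310 and 314 CPM with MAX and 363, 354 and 339 CPM in controls. The log2 fold changes were -0.20 (SE 0.04) for Cct8, -0.19 (SE 0.04) for Cct5 and -0.16 (SE 0.04) for Cct2, with edgeR adjusted p of 0.000472, 0.000250 and 0.000923. The controls of all 3 genes lay above every MAX restored library.

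Cct7, the eta subunit, changed least and had the most abundant transcript. It lies on chromosome 6 from 85401499 to 85418471. Its level was 435, 430 and 419 CPM in MAX restored libraries 1, 2 and 3, against 461, 458 and 446 CPM in controls 1, 2 and 3. The groups were separate but close, a decrease of 5.85%. The log2 fold change was -0.09 (SE 0.03, 95% interval -0.16 to -0.02, edgeR adjusted p = 0.0269). This call was lost with upper quartile scaling (adjusted p = 0.111), with DESeq2 (0.0674), without control 2 (0.0683), and without MAX restored libraries 1, 2 and 3 in turn (0.0688, 0.0886 and 0.163). Calls of the other 7 genes held in all 14 alternatives. Cct7 shares 214 exonic bases with Pradc1 and Cct8 shares 189 with Usp16, both on opposite strands.

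**Figure D2:**
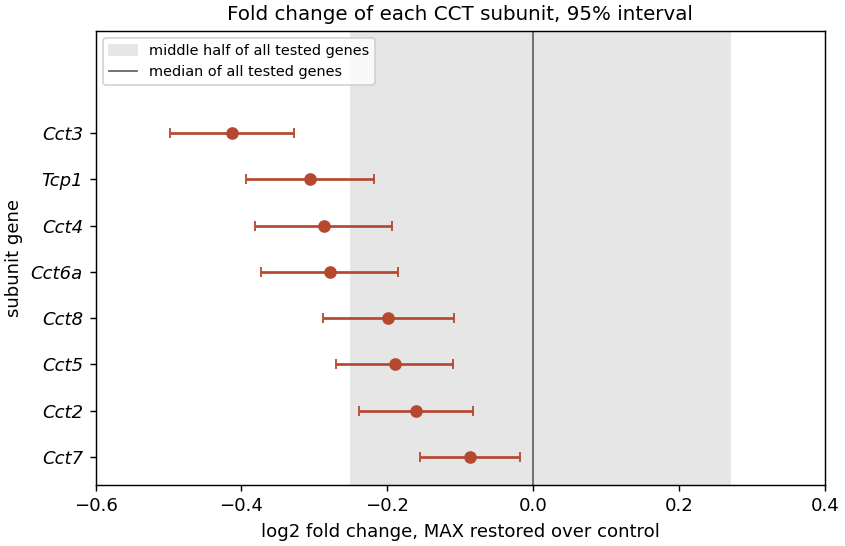
Log2 fold change of each CCT subunit, MAX restored over control, with its 95% interval from edgeR's fit; the grey band spans the quartiles of all tested genes, -0.25 to 0.27, and the line their median. All 8 lie below 0, with Cct3 outermost at -0.41 and Cct7 nearest to 0 at -0.09.

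The subunit genes lie on 8 different chromosomes. The median log2 fold change of the 25 tested genes on either side ran from -0.16 around Cct3 to 0.07 around Tcp1 and Cct8. Apart from Cct3, those medians lay between -0.01 and 0.07. All but Cct2 and Cct5 have pseudogene copies listed by RefSeq on GRCm38.p6, 16 in all and 5 for Cct7. Reads that match a copy equally well could be missing from their counts.

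The 8 transcripts were not equally abundant per length. Levels per length (TPM) were computed here from counts and exonic lengths, without TMM scaling. Each subunit fell by a smaller proportion in TPM than in CPM. In MAX restored cells Cct7 was highest at 510 ± 7.61 TPM, ahead of Cct2 at 468 ± 6.46 and Cct5 at 391 ± 7.83 (SD, n = 3). In controls the same genes led with 521 ± 4.97, 504 ± 10.6 and 429 ± 6.82 TPM. The libraries of these 3 genes did not overlap in either group. Cct3 and Cct6a overlapped in MAX restored cells, at 289 to 311 and 289 to 293 TPM, whereas in controls Cct3 at 379 to 389 TPM stood clear of Cct6a at 328 to 358. Tcp1, Cct8 and Cct4 lay within 259 to 279 TPM with MAX restored, where their ranges overlapped. In controls Tcp1 at 318 to 339 TPM overlapped both Cct6a and Cct4 at 305 to 322, and Cct4 overlapped Cct8 at 290 to 308, while Tcp1 and Cct8 did not overlap. For Tcp1 these levels use the full exonic length, 22.8% of which is shared with Acat3. On unshared length Tcp1 ranked 4 in both groups, ahead of Cct3, Cct6a, Cct8 and Cct4. Even the lowest subunit by TPM exceeded 95.1% of tested genes with MAX and 95.8% in controls.

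As a share of the summed level per kilobase, where equal abundance would give 12.5% each, the subunits were more uneven in every MAX restored library than in any control. The coefficient of variation over the 8 subunits was 26.4% to 28.8% in MAX restored libraries and 20.8% to 23.2% in controls. This difference was not tested, and no other gene set is given beside it. Cct7 took 18.5%, 18.7% and 17.9% in MAX restored libraries 1, 2 and 3, against 16.4%, 16.9% and 16.8% in controls 1, 2 and 3. Cct3 took 10.9%, 10.6% and 11.1% with MAX, against 12%, 12.5% and 12.6% in controls. Cct7 and Cct2 stood above an equal share in both groups, and further above it with MAX than in controls. Cct5 was also above it in both, at 14.1% with MAX and 13.8% in controls, with overlapping libraries. Cct2 had 16.9% ± 0.183 with MAX and 16.2% ± 0.213 in controls, and Tcp1 had 9.92% ± 0.0684 with MAX and 10.5% ± 0.223 in controls (SD, n = 3 each). The shares of Cct7, Cct3, Cct2 and Tcp1 did not overlap between the groups, and those of Cct4, Cct5, Cct6a and Cct8 did. Shares within a library add up to a fixed whole, so they do not move independently. In CPM, a measure unlike these shares, 33.8% of all tested genes were separated with MAX lower and 33.2% with MAX higher. The count of separated shares therefore has no background of its own kind. Cct8 was also separated when compared with the mean of the other subunits on the log2 scale.

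Set against the mean of the other 7 on the log2 scale, Cct3 moved by -0.20 with MAX restored and Cct7 by 0.17. Cct2 moved by 0.09 and Tcp1 by -0.07. The other 4 moved by 0.06 or less in either direction. An exact two-sided permutation test over the libraries gave p = 0.1 for Cct3, Cct7, Cct2, Tcp1 and Cct8, 0.2 for Cct4 and Cct5, and 0.4 for Cct6a. With 3 libraries against 3 the smallest p is 0.1, so none of the 8 tests could pass 0.05, and adjustment over them was not informative. Cct7 exceeded Cct3 per kilobase by 1.71, 1.77 and 1.61 times in MAX restored libraries 1, 2 and 3, against 1.37, 1.36 and 1.33 times in controls 1, 2 and 3, a pair picked after its values were seen. The highest subunit stood above the lowest by 1.92 ± 0.0902 times with MAX and 1.73 ± 0.0480 times in controls (SD, n = 3 each). With bases shared with other genes taken out of the length, Tcp1 came just behind Cct5 and ahead of Cct3 in both groups, at 12.2% with MAX and 12.9% in controls, and Cct3 was below an equal share in both, at 10.3% with MAX and 11.7% in controls.

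Placed in ring order, the fold changes formed a gradient to either side of Cct7, uneven only at Cct5 and Cct2. From Cct3 at -0.41 the log2 values went through Cct6a at -0.28 and Cct8 at -0.20 to Cct7 at -0.09. They continued through Cct5 at -0.19, Cct2 at -0.16 and Cct4 at -0.29 to Tcp1 at -0.31, the other neighbour of Cct3. The 3 genes with the highest levels per kilobase, Cct7, Cct5 and Cct2, code for adjacent subunits. Standard errors of 0.03 to 0.05 mean that several genes, such as Cct8, Cct5 and Cct2 or Cct4 and Tcp1, cannot be ranked by their change. Without control 1, Cct8 at -0.17 was nearer to 0 than Cct5 at -0.19. This ordering was seen after the values were known and was not tested.

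**Figure D3:**
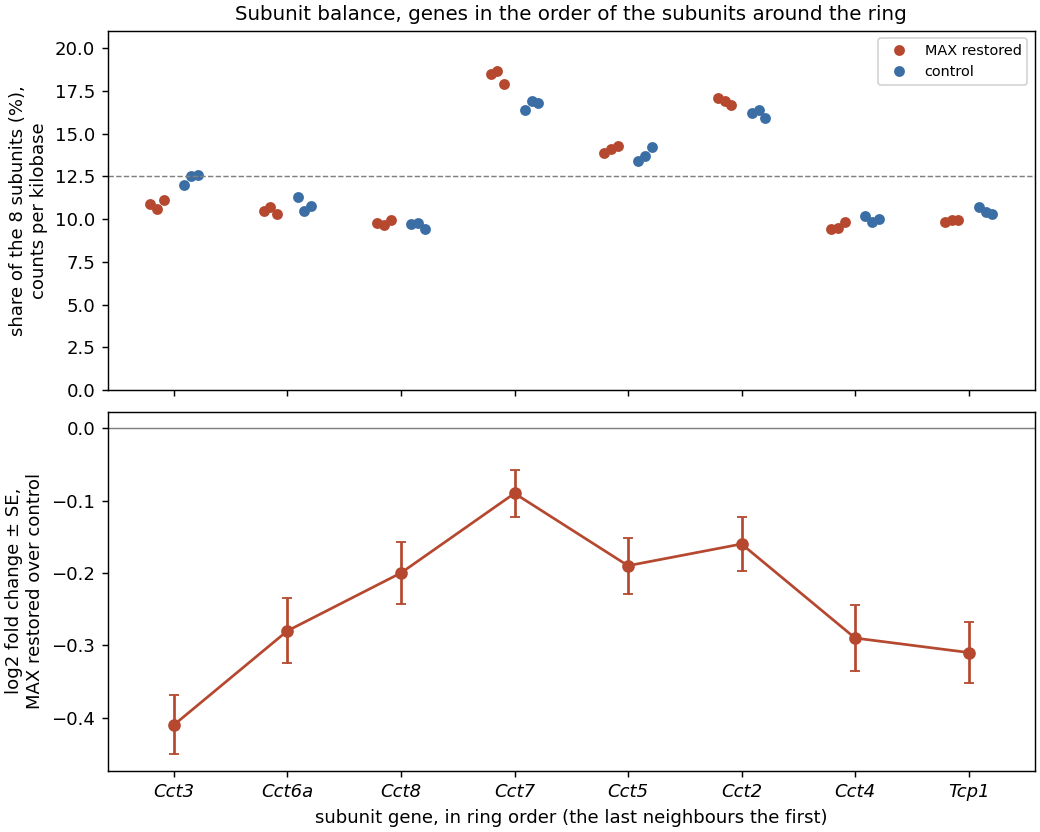
Upper panel, share of each subunit in the summed counts per kilobase of the 8 genes (percent), 1 point per library, with the equal share of 12.5% dashed. Lower panel, log2 fold change ± SE of the same genes in the order of the subunits around the ring, showing the trough at Cct3 (-0.41) and the peak at Cct7 (-0.09).

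Over the 6 libraries, the genes outside the complex whose log2 CPM was most like the mean of the subunits were Psmd14, Ncl, Ddx1, Atr and Adss, with Pearson correlations of 0.998 to 0.999. Psmd14 encodes a deubiquitinating subunit of the proteasome lid, and Ncl the nucleolar protein nucleolin. Ncl was at 636, 609 and 631 CPM in MAX restored libraries 1, 2 and 3, against 896, 819 and 801 CPM in controls 1, 2 and 3. Like most subunits, it was lower throughout with MAX and highest in control 1. All 6 libraries share the split into groups, and 1421 of 10023 candidate genes reached 0.95.

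Of 10 prefoldin and phosducin-like genes 9 were tested, of which 5 fell and 1 rose (median log2 fold change -0.15), where 32.3% of all tested genes were lower and 31.2% higher. The fallers were the prefoldin subunit genes Vbp1 (-0.29), Pfdn4 (-0.28), Pfdn1 (-0.19) and Pfdn2 (-0.17), and Pdcl3 (-0.15). Prefoldin is the hexamer that captures nascent actin and tubulin. Its other subunit genes did not pass, Pfdn5 at -0.02 and Pfdn6 at -0.07. Pdcl, the cofactor with which CCT assembles G protein beta subunits, rose by 0.29, at 43.5 ± 1.6 CPM with MAX and 35.6 ± 1.29 CPM in controls (SD, n = 3 each). Vbp1 was at 67.2, 65.5 and 67.9 CPM in MAX restored libraries 1, 2 and 3, against 93.4, 72.1 and 79.6 CPM in controls 1, 2 and 3, and without control 1 its log2 fold change was -0.18. The call of Pfdn4 was lost without control 1 (-0.18, adjusted p = 0.089) and those of Pfdn1 and Pfdn2 without MAX restored library 3 (adjusted p = 0.0639 and 0.0681). Pdcl3 lost its call in 9 of 14 alternatives, DESeq2 and the replicate block among them (adjusted p = 0.155 and 0.0598). Without MAX restored library 3 the count called lower was 2. Of 7 genes of the prefoldin-like and R2TP complexes, 4 were lower and 0 higher (median -0.28; unadjusted p under 0.05 also 4). They were Uri1 (-0.52), the ATPase genes Ruvbl2 (-0.52) and Ruvbl1 (-0.28), and Uxt (-0.55). This count stands beside the same background of 32.3% lower and 31.2% higher. Without control 2 it was 2, with Ruvbl1 and Uxt lost (adjusted p = 0.108 and 0.116). The call of Ruvbl1 was also lost without MAX restored library 3 (0.101), and that of Uxt with DESeq2 (0.0953) and without MAX restored libraries 1 and 2 in turn (0.103 and 0.122). Uxt averaged 2.82 ± 0.697 CPM with MAX and 4.10 ± 0.675 CPM in controls, with overlapping libraries.

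The genes of the mitochondrial chaperonin were lower as well, with larger log2 fold changes than any CCT subunit, a difference that was not tested. Hspe1, its lid, was at 23.1, 20.1 and 21.6 CPM in MAX restored libraries, against 39.9, 36.1 and 40.0 CPM in controls. Hspd1, its barrel, was at 82.3, 86.9 and 88.8 CPM with MAX, against 145, 121 and 124 CPM in controls. Their log2 fold changes were -0.84 (SE 0.08) and -0.60 (SE 0.06), with edgeR adjusted p of 1.11e-08 and 5.27e-08. In the CCT-like family that assembles the BBSome of cilia, Bbs10 rose (0.60; 5.13 ± 0.834 CPM with MAX and 3.40 ± 0.458 CPM in controls), a call lost without MAX restored library 2. Mkks (-0.09) and Bbs12 (0.08) did not pass.

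Of 6 genes listed as tubulin folding cofactors, 2 were lower and 1 higher (median -0.06). Over all tested genes 32.3% were lower and 31.2% higher. Arl2 (-0.50) and Tbca (-0.39) fell and Tbcc rose (0.32). Of 14 actin and tubulin clients, 5 were lower and 5 higher (median -0.04), beside the same shares over all genes. Actb rose, at 1197, 1154 and 1140 CPM with MAX against 859, 901 and 867 CPM in controls. The neuronal tubulin gene Tubb3 was at 103, 111 and 102 CPM with MAX against 49.3, 57.8 and 55.5 CPM in controls (log2 fold change 0.96), and Tuba1a rose by 0.56. Tubb6 fell by 0.90 on the log2 scale. Tubb5 was at 1656 ± 65.4 CPM with MAX and 1693 ± 94.1 CPM in controls and did not pass (adjusted p = 0.477). Tubulin and actin genes have near-identical paralogs and pseudogenes, so how reads were divided among them is uncertain. Of 14 other clients 13 were tested, 6 lower and 4 higher (median -0.07), against the same background. Cdc20 (-0.47), an activator of the anaphase-promoting complex, the cyclin gene Ccne1 (-0.33) and Vhl (-0.33) fell, and the G protein beta gene Gnb1 rose (0.44). Across these 6 lists the medians ranged from -0.28 to -0.04, beside 0.00 for all genes and -0.24 for the subunits.

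**Figure D4:**
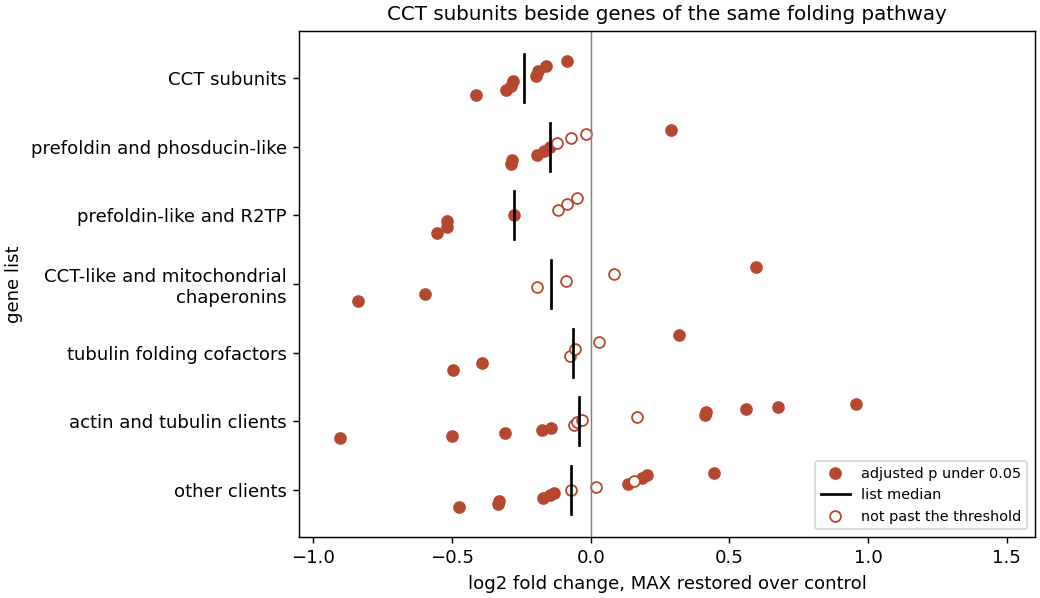
Log2 fold change, MAX restored over control, of the 8 CCT subunits and of the tested genes in 6 lists. The lists hold cofactors and clients of CCT, and genes of related or separate folding and assembly systems such as the mitochondrial chaperonin. Filled points passed an adjusted p under 0.05 and bars are list medians. The subunits and the prefoldin-like genes lie wholly below 0, while the actin and tubulin clients spread from -0.90 to 0.96.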

How the data were processed

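RNA was measured by sequencing in 6 libraries, 3 MAX restored and 3 control, grouped by their titles. The deposited values are raw counts per gene. Per the file headers, the authors counted with featureCounts 1.6.0, without strand, over exons of the UCSC mm9 annotation, with no option set for multi-mapping reads or for reads shared between genes. The submitters' processing notes also name bcl2fastq 1.8.4, STAR 2.5.2a and mm9. Libraries were made from 500 ng of RNA. The headers name a single sequencing run, so no batch could be examined.

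Genes were kept by filterByExpr (minimum count 10), scaled by TMM and tested in R 4.3.3 with edgeR 4.0.16's quasi-likelihood test on group, two-sided, with Benjamini-Hochberg adjustment over 12664 genes called at 0.05. Each standard error was obtained by dividing the size of the log2 fold change by the square root of F. CPM follow TMM scaling. The biological coefficient of variation was 4.28%. The script was tested on simulated data. Alternatives used other scalings, no filter, DESeq2 1.42.0, limma 3.58.1 voom, a replicate block, Rn45s left out, other lengths, and each library left out. The main results use every library. The reads carry no molecular identifiers, so they are not independent molecules.

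The members and lists were chosen with earlier results of these data known. Genes named are Max, the subunits, from each list the 4 called genes with the smallest p (2 where none was called), and 5 genes most like the subunits with a mean of at least 10 CPM (log2 CPM with a prior count of 2). Others were named because a count was 5 or fewer, or after their values were seen. A marker gene is not reported here, and its list is given without it.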

Additional observations from a re-analysis of the deposited data

How the results depend on the processing

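All 8 subunits stayed lower in sign under all 14 alternatives to the test. The number called lower was 7 or 8, and 0 were called higher throughout; leaving out each library gave 7 to 8. Without control 1 the median of the subunits was -0.21 in place of -0.24, with 8 called lower. Over all genes, leaving out each library gave 3640 to 4219 lower and 3618 to 4033 higher, and DESeq2 3576 and 3444, against 4092 and 3948. The highest subunit over the lowest became 2.10 times with MAX restored and 1.83 times in controls on unshared exonic length, chosen after seeing the data, and 2.39 and 2.08 times on raw counts, since length then sets part of the level. Leaving out each library gave 1.89 to 1.97 with MAX restored and 1.71 to 1.76 in controls. Differences of a subunit from the other 7 do not depend on length and kept their sign in every case; the closest to 0 was Cct6a at -0.01 without control 1. Of the single genes recomputed, a sign turned in 4, none of them past the threshold with all libraries: Lyz2 to -0.03 without control 3 (range over left-out libraries to 0.93) and Cd68 to -0.14 without MAX restored library 3 (range to 0.30), Pfdn5 to 0.01 with upper quartile scaling (-0.04 to 0.01 over left-out libraries) and Tubb5 to 0.01 without control 2 or MAX restored library 3 (from -0.07, where it passed without control 1); the cause was not tested. Deviations of same-numbered libraries had correlations of 0.00, 0.04 and -0.02, and those of differently numbered ones -0.07 to 0.06. These values show no pairing by number, but values this small cannot exclude one. With the replicate block, 4093 genes were lower and 3941 higher, and 8 subunits lower. Depth limits Cct6b, Bbs10 and Uxt, which had 68 counts or fewer per library.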
